A study of Homo sapiens with 6 samples.

Results

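ZNF genes encode zinc finger proteins, most of them of the C2H2 kind, and the members described here are the protein-coding genes whose symbol is ZNF followed by a number below 300. A gene was kept when its deposited value was 10 or more in at least 2 of the 6 libraries. Of 142 such genes, 141 passed, out of 21773 features of any kind that passed the same filter. The gene left out was ZNF280A, whose second-highest value was 8.86, and the member nearest to the limit was ZNF98, with a second-highest value of 21.3. The data are PRO-seq libraries, in which nascent RNA is labelled at the active site of engaged RNA polymerase, so a value measures polymerase at work on a gene rather than finished mRNA. They come from SBC-3, a small cell lung cancer line, transfected with 10 nM siRNA and harvested after 72 h. The groups were SBC-3 cells labelled as SFPQ knockdown with the siRNA siSFPQ-2, the same cells with the siRNA siSFPQ-3, and wild-type cells with the control siRNA siCtrl, with 2 libraries each. SFPQ is a nuclear RNA- and DNA-binding protein of paraspeckles that takes part in transcription and splicing.

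A C2H2 finger is a short fold held by a zinc ion, and rows of such fingers read DNA sequence. Many human ZNF proteins also carry a KRAB domain, which recruits TRIM28 (KAP1) and through it SETDB1, HP1 proteins and histone deacetylases, and these proteins hold transposable elements and other targets silent. The KRAB genes multiplied by tandem duplication, largely on chromosome 19, so neighbours there can be close copies. Reads from near-identical stretches could be split between such paralogs in ways that the deposited values do not show, and values of single genes in those clusters are uncertain to that extent.

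Values are normalized reads, 1 per gene and library, as the authors deposited them. Library depth ranged from 12072813 to 18475158 reads over all features, and the libraries of each group differed by more than sampling noise. The labels do not tell whether replicate libraries are separate cultures, and the spread behind each p-value may therefore be technical. Differences are log2 fold changes on the log2(value + 1) scale with their standard error (SE), and a gene was called higher or lower when limma's Benjamini-Hochberg adjusted p over all 21773 features was under 0.05. The 141 genes had a median level of 408 normalized reads averaged over the libraries, with a range of 20.8 to 2535.

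SFPQ, the targeted gene, had 1825 and 1972 normalized reads under siSFPQ-2 and 1922 and 2466 under siSFPQ-3, against 2294 and 2435 under siCtrl. The groups overlapped, and limma made no call (log2 fold change -0.22, adjusted p = 0.137). An siRNA acts on finished RNA, so nascent reads do not check the knockdown itself. Of the 4 neuroendocrine markers of small cell lung cancer analysed here (NEUROD1, CHGA, SYP, DLL3), CHGA was near 0, and their summed level was 281 to 492 normalized reads in siSFPQ libraries and 391 to 437 in siCtrl libraries. Most of that sum was SYP, at 187 to 412 in siSFPQ libraries and 226 to 283 in siCtrl libraries, whereas DLL3 was at 57.7 to 85.6 in siSFPQ libraries, below its 124 and 129.6 in siCtrl libraries. NEUROD1, at 11.1 to 25.8 in siSFPQ libraries and 27.1 and 31.0 in siCtrl libraries, and the tuft marker POU2F3, at 73.9 to 90.8 in siSFPQ libraries and 119 and 129 in siCtrl libraries, were also lower in all 4 siSFPQ libraries. YAP1, a marker of the non-neuroendocrine subtype, was at 4634 to 5431 in siSFPQ libraries and 2856 to 3312 in siCtrl libraries. The 3 epithelial markers analysed here summed to 2207 to 2717 in siSFPQ libraries and 921 to 1016 in siCtrl libraries. That difference lay in the keratin genes KRT8, at 1931 to 2455 in siSFPQ libraries and 787 and 887 in siCtrl libraries, and KRT18, while EPCAM was at 122 to 132 in siSFPQ libraries and 115 and 123 in siCtrl libraries. The 2 fibroblast markers analysed here (COL1A1, COL1A2) summed to 411 to 582 in siSFPQ libraries and 224 to 255 in siCtrl libraries. Nearly all of that sum was COL1A1, at 370 to 551 in siSFPQ libraries and 227 and 202 in siCtrl libraries. COL1A2 overlapped, at 21.3 to 56.1 in siSFPQ libraries and 27.9 and 22.2 in siCtrl libraries. The listed fibroblast markers DCN and LUM were not analysed here. CD68, the immune marker analysed here, was at 434 to 710 in siSFPQ libraries and 730 to 740 in siCtrl libraries, and the other listed immune markers and the endothelial markers were not analysed here. In bulk libraries a change in the makeup of the cells and a change per cell cannot be told apart, and the part of these shifts in the results below was not tested.

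Across the ZNF genes, nascent transcription was more often lower than higher after SFPQ siRNA. Of 141 genes 47 were lower and 9 were higher in the siSFPQ libraries than in the siCtrl libraries, and 85 were not called in either direction (limma, adjusted p under 0.05). Among all tested features 23.2% were called lower and 24.8% higher, so the 33.3% of ZNF genes called lower stood above the background share and the 6.38% called higher stood below it. The median log2 fold change of the 141 genes was -0.22, with quartiles of -0.37 and 0.01, against a median of -0.02 over all features. Of the 14020 protein-coding features 23% were called lower and 28.4% higher, with a median of 0.02. Most called changes were below 1.5-fold: 13 genes called lower and 3 called higher passed that size, and the whole range ran from -0.98 to 1.80. The share of all features past 1.5-fold was not counted. At an unadjusted p under 0.05 the counts were 58 lower (41.1%) and 10 higher (7.09%), beside 27.1% lower and 27.8% higher over all features. The authors' deposited table, which carries their own adjusted p-values, gave 32 of the 141 genes lower and 6 higher at the same threshold. The authors' calls over all features were not counted, so these counts were not set against a background share. The plot of ranked changes shows the unequal tails.

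**Figure D1:**
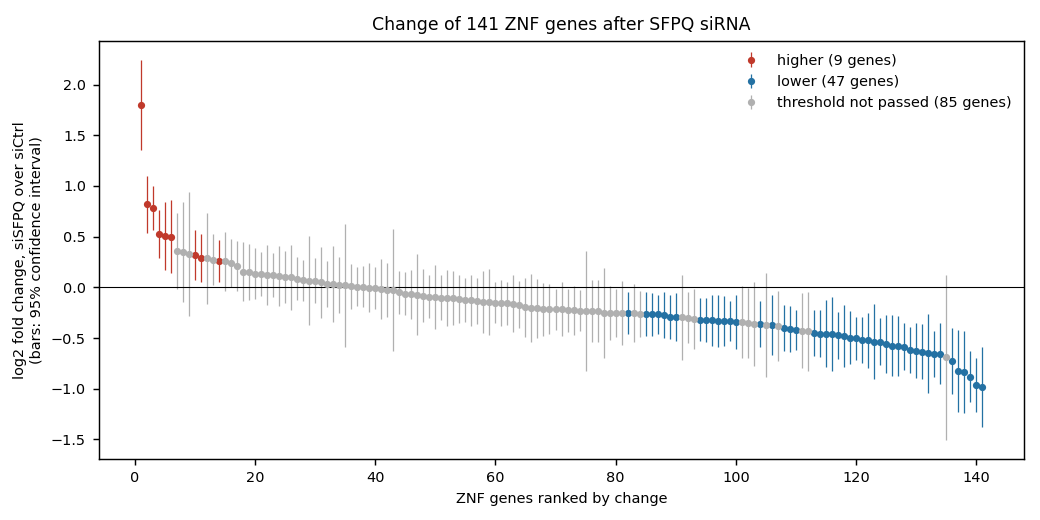
Log2 fold change of each of the 141 ZNF genes, siSFPQ over siCtrl, ranked from the highest on the left to the lowest on the right, with limma's 95% confidence interval as bars. Red marks the 9 genes called higher, blue the 47 called lower and grey the 85 that did not pass, and most points lie below 0.

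Both siCtrl libraries were needed for many of these calls. Without siCtrl replicate 1 there were 17 lower and 4 higher, and without siCtrl replicate 2 there were 20 lower and 3 higher. Without siSFPQ-2 replicate 2 there were 5 higher. Over all features fewer were called lower as well when a siCtrl library was left out. With either siCtrl library left out, the share of ZNF genes called lower was near the share over all features. The share of ZNF genes called higher stayed below that over all features. In the values themselves, 65 genes lay lower in all 4 siSFPQ libraries than in both siCtrl libraries, 13 lay higher in all 4, and 63 overlapped. Over all features 31% were entirely below and 30.3% entirely above. Summed over the 141 genes, the normalized reads were 70301 and 72179 under siSFPQ-2 and 72166 and 73565 under siSFPQ-3, against 81312 and 79091 under siCtrl. That sum was 0.484% to 0.512% of all tested reads in siSFPQ libraries and 0.553% to 0.592% in siCtrl libraries.

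The ZNF genes numbered 300 and above had counts of the same order. Of 318 such genes 102 (32.1%) were lower and 28 (8.81%) higher, with a median of -0.18, and the difference between both sets of ZNF genes was not tested.

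**Figure D2:**
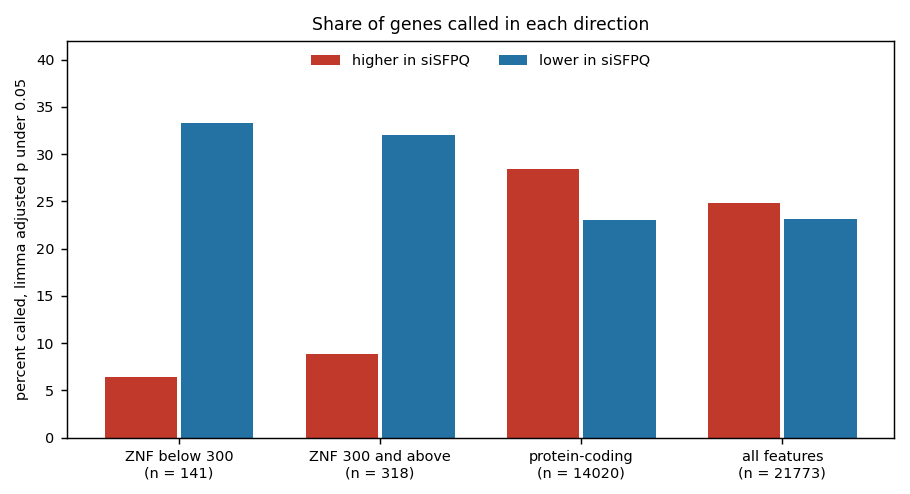
Percent of genes called higher (red) and lower (blue) in siSFPQ over siCtrl libraries, limma adjusted p under 0.05, for ZNF genes numbered below 300, ZNF genes numbered 300 and above, all protein-coding features and all features. Both ZNF sets have more than 30% of genes lower and under 10% higher, whereas the wider sets have 23.2% or less lower and 24.8% or more higher.

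The 2 siRNAs share the siCtrl libraries, and each was set against them in the same fit. With siSFPQ-2, 38 of the 141 genes were lower and 6 higher, beside 17.9% lower and 21.2% higher over all features. With siSFPQ-3, 32 were lower and 6 higher, beside 20.4% lower and 23% higher over all features. Without siCtrl replicate 1 the counts lower were 14 for siSFPQ-2 and 16 for siSFPQ-3, and without siCtrl replicate 2 they were 17 and 15, with 3 higher for each siRNA. Without siSFPQ-2 replicate 2 there were 19 lower with siSFPQ-2. With both siRNAs 24 genes were called lower and 4 higher, and 0 were called in opposite directions. The share of all features called with both siRNAs was not counted. Since the siCtrl libraries are shared, the 2 comparisons are not independent. Set against each other, siSFPQ-3 and siSFPQ-2 differed in 0 of the 141 genes in either direction by limma, beside 0.0781% higher and 0.023% lower over all features. DESeq2 called 1. With the replicate number as a block limma called more, among the ZNF genes and over all features, as given with the alternatives below. At an unadjusted p under 0.05 there were 11 higher with siSFPQ-3 (7.8%) and 5 lower (3.55%), near the 7.57% and 4.91% over all features, and the smallest adjusted p was 0.088, for ZNF107. The median half-width of the 95% interval of this difference was 0.30 log2, and that interval is not adjusted for the number of features. With 2 libraries per siRNA, larger differences also went uncalled, such as 0.62 for ZNF107.

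The largest rise was that of ZNF177, a KRAB zinc finger gene on chromosome 19 (9363013 to 9382617, GRCh38.p14). It had 104 and 89.7 normalized reads under siSFPQ-2 and 117 and 97.2 under siSFPQ-3, against 31.9 and 25.5 under siCtrl. All 4 siSFPQ libraries were above both siCtrl libraries, a 3.48-fold difference (log2 fold change 1.80, SE 0.20, limma adjusted p = 5.75e-05). The whole span of ZNF177 lies within ZNF559-ZNF177, a read-through gene that starts at the neighbouring ZNF559. The row of the read-through gene had 459 and 382 normalized reads under siSFPQ-2 and 565 and 408 under siSFPQ-3, against 459.9 and 379 under siCtrl, so the groups overlapped (log2 fold change 0.10, limma adjusted p = 0.595). ZNF559 itself was lower, with a log2 fold change of -0.34 (limma adjusted p = 0.0482). The table pairs the ZNF177 row with an Ensembl identifier that the profile files give to the read-through gene, and reads of the 2 genes may not be cleanly separated.

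ZNF281, a factor that binds GC-rich promoter elements and is known from pluripotency and the epithelial-mesenchymal transition, lies on chromosome 1 (200404951 to 200410036). It had 624 and 751 normalized reads under siSFPQ-2 and 577 and 733 under siSFPQ-3, against 363 and 393 under siCtrl. The groups did not overlap, and ZNF281 rose 1.76-fold (log2 fold change 0.82, SE 0.13, limma adjusted p = 0.00044). ZNF277 on chromosome 7 (112206695 to 112343934), whose protein is known to bind the Polycomb protein BMI1, had 726 and 801 under siSFPQ-2 and 1000 and 922 under siSFPQ-3, against 516 and 479.7 under siCtrl. It rose 1.72-fold (log2 fold change 0.78, SE 0.10, limma adjusted p = 0.000117), and an antisense RNA gene, ZNF277-AS1, covers 11.5% of its span. No source used here says that the counting used strand, so reads of the antisense gene cannot be told apart.

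ZNF148 (ZBP-89), another factor of GC-rich elements, had 2677 and 2672 normalized reads under siSFPQ-2 and 3078 and 2719 under siSFPQ-3, against 2114 and 1769 under siCtrl. Every siSFPQ library exceeded both siCtrl libraries (log2 fold change 0.52, SE 0.11, limma adjusted p = 0.00231), and without siCtrl replicate 2 the adjusted p was 0.0563. The other called rises were smaller. ZNF267 had 748 and 1095 under siSFPQ-2 and 952 and 1205 under siSFPQ-3, against 712 and 672 under siCtrl (log2 fold change 0.51). ZNF75D, a SCAN gene of the X chromosome, had 185 and 264 under siSFPQ-2 and 191 and 205 under siSFPQ-3, against 158 and 138 under siCtrl (log2 fold change 0.50). In both genes the siSFPQ libraries lay above the siCtrl libraries and spread more widely. ZNF117 had a log2 fold change of 0.32 and ZNF274 of 0.26. ZNF44, with 0.29 (limma adjusted p = 0.0436), had 512 and 495 under siSFPQ-2 and 375 and 400.04 under siSFPQ-3, against 383 and 341 under siCtrl. Its siSFPQ-3 libraries overlapped siCtrl, and the log2 fold change was 0.48 with siSFPQ-2 (limma adjusted p = 0.0108) and 0.10 with siSFPQ-3 (limma adjusted p = 0.532). ZNF267, ZNF75D, ZNF117 and ZNF274 each lost the call without siCtrl replicate 1, without siCtrl replicate 2 and in limma without trend. ZNF75D, ZNF117 and ZNF274 also lost it without siSFPQ-2 replicate 2, ZNF117 and ZNF274 without siSFPQ-3 replicate 2 or with DESeq2, and ZNF274 without siSFPQ-2 replicate 1 or with libraries at the same total. ZNF274, a KRAB protein that brings SETDB1 to the ends of other ZNF genes, had 1190 and 1226 normalized reads under siSFPQ-2 and 1236 and 1393 under siSFPQ-3, against 1014 and 1087 under siCtrl (limma adjusted p = 0.0402). ZNF117 lies almost wholly within the read-through gene ERV3-1-ZNF117, with 99.98% of its span shared.

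The falls were more numerous and, apart from ZNF177, reached further from 0 than the rises. ZNF287, a gene of the SCAN and KRAB kind on chromosome 17 (16546954 to 16569212), had 154 and 104 normalized reads under siSFPQ-2 and 152 and 123 under siSFPQ-3, against 265 and 256 under siCtrl. Its 2 groups were well apart, a 1.97-fold fall (log2 fold change -0.98, SE 0.18, limma adjusted p = 0.00125). ZNF93, the KRAB protein known to silence certain L1 elements, lies on chromosome 19 (19900946 to 19935575). It had 493 and 379 under siSFPQ-2 and 628 and 609.7 under siSFPQ-3, against 1072 and 954 under siCtrl. The siSFPQ libraries were all lower, most so with siSFPQ-2 (log2 fold change -0.97, SE 0.12, limma adjusted p = 0.000109).

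ZNF276 on chromosome 16 (89720368 to 89740925) had 1333 and 1039 normalized reads under siSFPQ-2 and 1184 and 1066 under siSFPQ-3, against 2041 and 2201 under siCtrl. It fell 1.84-fold (log2 fold change -0.88, SE 0.11, limma adjusted p = 0.000149). The gene overlaps FANCA, a DNA repair gene, over 16.4% of its span, and FANCA was lower as well (log2 fold change -0.62, limma adjusted p = 0.00244). It also overlaps VPS9D1 over 2.58% of its span, and VPS9D1 was not called (log2 fold change 0.20, limma adjusted p = 0.158) but was higher with siSFPQ-2 (0.39, limma adjusted p = 0.0334). The split of reads between these genes was not tested.

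ZNF114 had 247 and 152 normalized reads under siSFPQ-2 and 242 and 264 under siSFPQ-3, against 439 and 357 under siCtrl. It was lower in every siSFPQ library, 1.79-fold (limma adjusted p = 0.00363), and without siCtrl replicate 1 the adjusted p was 0.0725. ZNF285 had 89.1 and 66.4 under siSFPQ-2 and 77.4 and 77.0 under siSFPQ-3, against 129.9 and 145 under siCtrl. It fell 1.77-fold (limma adjusted p = 0.00382), and without siCtrl replicate 2 the adjusted p was 0.0594. Both are KRAB genes of chromosome 19.

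ZNF2, ZNF229 and ZNF239 completed the 8 largest falls, with groups that did not overlap. ZNF2 fell 1.66-fold, to 145 and 171 normalized reads under siSFPQ-2 and 109.7 and 129.6 under siSFPQ-3, against 231 and 224 under siCtrl (limma adjusted p = 0.00231). ZNF229 fell 1.58-fold, to 153 and 179 under siSFPQ-2 and 145 and 138 under siSFPQ-3, against 239 and 245 under siCtrl (limma adjusted p = 0.00269). ZNF239, the human counterpart of mouse Mok2, fell 1.58-fold, to 423 and 404 under siSFPQ-2 and 402 and 366 under siSFPQ-3, against 618 and 638 under siCtrl (limma adjusted p = 0.000445).

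**Figure D3:**
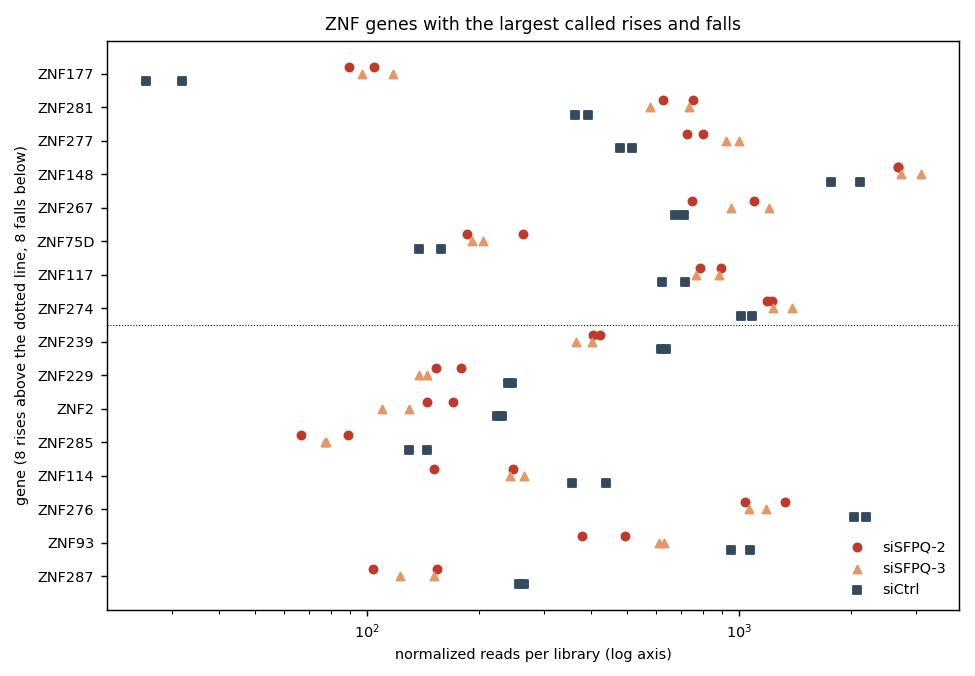
Normalized reads in each library (log axis) for the 8 ZNF genes with the largest called rises, above the dotted line, and the 8 with the largest called falls, below it. Within each gene siSFPQ-2 (circles) stands above siSFPQ-3 (triangles) and siCtrl (squares), and for all 16 genes the 4 siSFPQ libraries lie on one side of both siCtrl libraries, as the choice of these genes requires.

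RefSeq promoters were at hand for 122 of the 141 genes, and 6 are shown because they belong to genes with large changes in opposite directions: the first 3 of the largest called rises, and of the largest called falls, whose window touches no other RefSeq gene. Each is the 250 bases before a RefSeq transcription start (GRCh38.p14), on the gene's own strand. Of the 122 genes 27 have more than 1 listed start, and the first listed was used, which lies 8 bases inside the gene's span for ZNF287 and 645 bases inside it for ZNF148. Capitals mark CCAAT, the box bound by NF-Y, and CCGGAAG, a core bound by ETS factors, on either strand, so that CCAAT reads ATTGG on the other strand. ZNF281, ZNF277 and ZNF148 were higher in siSFPQ libraries and ZNF287, ZNF93 and ZNF285 lower.
ZNF281 (chr1:200410037-200410286, minus strand): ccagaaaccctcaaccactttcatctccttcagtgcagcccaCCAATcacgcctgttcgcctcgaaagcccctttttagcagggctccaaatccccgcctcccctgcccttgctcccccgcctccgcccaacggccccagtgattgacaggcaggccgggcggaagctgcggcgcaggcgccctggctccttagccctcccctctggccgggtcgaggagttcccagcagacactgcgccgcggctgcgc
ZNF277 (chr7:112206445-112206694, plus strand): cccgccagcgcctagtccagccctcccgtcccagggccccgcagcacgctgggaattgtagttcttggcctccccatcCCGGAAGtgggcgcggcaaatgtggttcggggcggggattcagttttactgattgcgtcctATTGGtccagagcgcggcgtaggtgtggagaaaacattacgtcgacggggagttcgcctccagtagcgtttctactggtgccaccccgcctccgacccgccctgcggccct
ZNF148 (chr3:125374710-125374959, minus strand): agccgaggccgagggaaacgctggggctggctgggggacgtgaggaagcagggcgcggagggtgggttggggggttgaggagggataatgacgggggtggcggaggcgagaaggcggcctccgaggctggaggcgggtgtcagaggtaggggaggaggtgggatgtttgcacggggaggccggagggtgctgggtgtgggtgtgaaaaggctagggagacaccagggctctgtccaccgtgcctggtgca
ZNF287 (chr17:16569205-16569454, minus strand): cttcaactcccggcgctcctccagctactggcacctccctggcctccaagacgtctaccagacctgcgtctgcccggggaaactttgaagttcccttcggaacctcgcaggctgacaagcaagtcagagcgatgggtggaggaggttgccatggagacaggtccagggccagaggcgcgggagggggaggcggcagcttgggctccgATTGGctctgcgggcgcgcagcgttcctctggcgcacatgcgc
ZNF93 (chr19:19900696-19900945, plus strand): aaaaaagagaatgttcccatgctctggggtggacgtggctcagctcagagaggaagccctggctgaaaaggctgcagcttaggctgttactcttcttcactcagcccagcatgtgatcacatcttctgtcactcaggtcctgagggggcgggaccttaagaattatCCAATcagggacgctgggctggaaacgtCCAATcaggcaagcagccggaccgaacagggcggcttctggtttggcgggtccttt
ZNF285 (chr19:44401609-44401858, minus strand): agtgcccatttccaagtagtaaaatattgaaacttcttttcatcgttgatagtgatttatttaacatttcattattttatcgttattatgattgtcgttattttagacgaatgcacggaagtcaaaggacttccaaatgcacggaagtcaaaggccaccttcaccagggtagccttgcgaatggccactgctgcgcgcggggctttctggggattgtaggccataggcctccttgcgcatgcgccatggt
The CCAAT box of ZNF281 begins 208 bases before the start used and that of ZNF287 43 bases before it, while ZNF93 has a pair, at 84 and 56 bases. ZNF277 has an ETS core at 172 bases and a CCAAT box at 111 bases before the start. Neither word is in the windows of ZNF148 and ZNF285.

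The promoters of the ZNF genes as a set held some of these words more often than other promoters did. CCGGAAG was found in 38.5% of the 122 promoters, against 15.4% of the 11052 promoters of tested protein-coding genes and 8.82% of all 27305 promoters of the same length. CCAAT was found in 50.8%, against 35% of protein-coding and 33% of all promoters. ACTACAA, part of the element bound by ZNF143, was in 8.2%, against 3.44% and 2.64%. The word TATAAA was in 1.64% of ZNF promoters, against 5.67% of protein-coding and 11.1% of all promoters. The GC box GGGCGG was in 57.4%, against 66.6% of protein-coding and 42.3% of all promoters, and the median GC content was 59.4%, against 64.8% for protein-coding promoters.

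By direction of change the counts were as follows. The ETS core stood in 4 of 9 promoters of genes called higher, 17 of 40 of genes called lower and 26 of 73 of those that did not pass. CCAAT stood in 6 of 9, 18 of 40 and 38 of 73. These counts describe sequence, and binding was not tested.

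On chromosome 19, where 59 of the 141 genes lie, 20 were lower (33.9%) and 3 higher (5.08%), with a median log2 fold change of -0.25. On the other chromosomes 27 of 82 were lower (32.9%) and 6 higher (7.32%), with a median of -0.20. Over all features 23.2% were lower and 24.8% higher. Neighbouring members less than 1 Mb apart, start to start, formed 11 groups on chromosome 19, of which 2 are single genes. The chromosome 19 count moved with single libraries. Without siCtrl replicate 2 the share lower was below that over all features. Fewer genes were lower without siCtrl replicate 1, siCtrl replicate 2 or siSFPQ-2 replicate 2, as was the case over all features. There was 1 higher when any one of these libraries was left out, and likewise without siSFPQ-2 replicate 1 or without siSFPQ-3 replicate 2.

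The group of 13 genes from ZNF101 to ZNF91 (19668153 to 23395471) had 7 lower (53.8%, beside 23.2% over all features) and 0 higher. Its members called lower were ZNF101, ZNF93, ZNF90, ZNF66, ZNF85, ZNF100 and ZNF43. The median log2 fold change of this group was -0.49 with siSFPQ-2 and -0.19 with siSFPQ-3, and 11 of the 13 genes were higher with siSFPQ-3 than with siSFPQ-2. Of all 141 genes 46.8% were lower with siSFPQ-3 than with siSFPQ-2, and of all features 49.6%. No gene of the group was called for this difference, and reads may be split between these neighbours, so the 13 genes are not independent. ZNF43 had 968 and 884 normalized reads under siSFPQ-2 and 1304 and 1265 under siSFPQ-3, against 1368 and 1240 under siCtrl, so only the siSFPQ-2 libraries were clear of siCtrl. The difference between siRNAs for ZNF43 was 0.47 (95% interval 0.23 to 0.71, limma adjusted p = 0.118), which did not pass the threshold.

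ZNF100 in the same group had 436 and 391 normalized reads under siSFPQ-2 and 575 and 544 under siSFPQ-3, against 743 and 657 under siCtrl. It was lower in all 4 siSFPQ libraries, and the siRNAs differed by 0.44 (95% interval 0.17 to 0.70, limma adjusted p = 0.175). ZNF91, the KRAB protein known to silence SVA elements, lies at the end of the group and did not pass the threshold, with 1145 and 1359 under siSFPQ-2 and 1200 and 1251 under siSFPQ-3, against 1147 and 1124 under siCtrl (log2 fold change 0.12, 95% interval -0.09 to 0.34, limma adjusted p = 0.327). ZNF208, at a low level, had 27.6 and 24.4 under siSFPQ-2 and 51.6 and 34.4 under siSFPQ-3, against 28.7 and 39.9 under siCtrl, and the groups overlapped.

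A like pattern was seen in ZNF107 and ZNF273 on chromosome 7, which were named here after their values were seen. ZNF107 had 456 and 389 normalized reads under siSFPQ-2 and 659 and 640.1 under siSFPQ-3, against 767 and 734 under siCtrl. ZNF273 had 259 and 249 under siSFPQ-2 and 358 and 344 under siSFPQ-3, against 418 and 413 under siCtrl. In both genes every siSFPQ-3 library lay between the siSFPQ-2 and the siCtrl libraries, and the differences between siRNAs were 0.62 (95% interval 0.36 to 0.89, limma adjusted p = 0.088) and 0.46 (0.19 to 0.74, limma adjusted p = 0.162). ZNF138, which lies between them, had a difference of 0.15 (-0.13 to 0.43), and ZNF117, the next member along, one of -0.03 (-0.31 to 0.26).

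The group of 19 genes from ZNF283 to ZNF296 (43827321 to 45076478) had 5 lower (26.3%, near the 23.2% over all features) and 0 higher, with a median of -0.20 with siSFPQ-2 and -0.25 with siSFPQ-3. ZNF285, ZNF229, ZNF284, ZNF223 and ZNF180 were the genes called lower. In the group of 9 genes from ZNF71 to ZNF132 (56595302 to 58440153) ZNF71, ZNF264, ZNF134 and ZNF8 were lower and ZNF274 was higher, with a median of -0.33. The share lower in this group was 44.4%, beside 23.2% over all features.

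**Figure D4:**
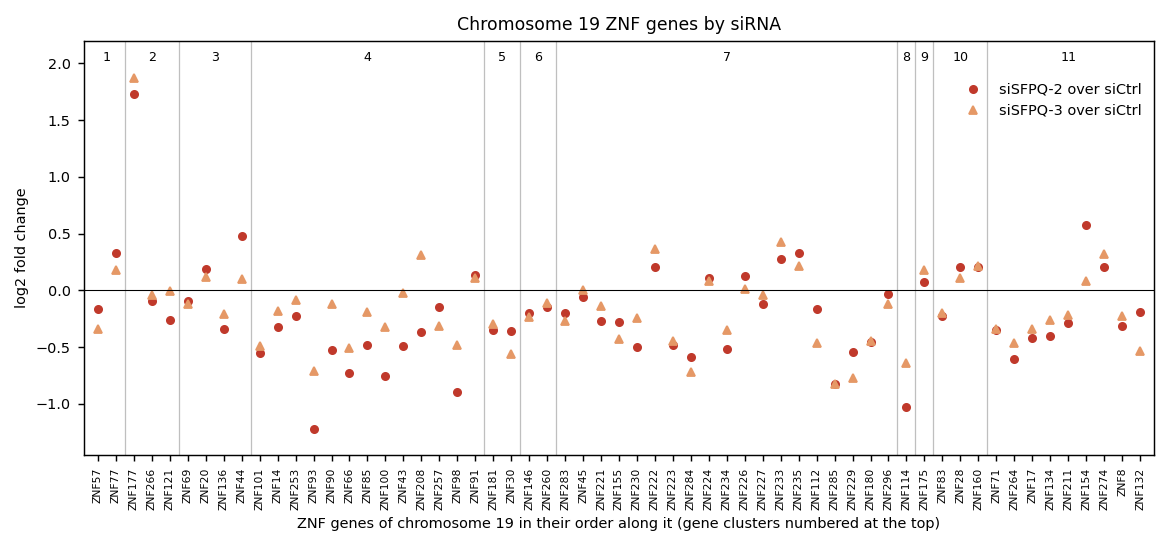
Log2 fold change over siCtrl of the 59 chromosome 19 ZNF genes in their order along the chromosome, for siSFPQ-2 (red circles) and siSFPQ-3 (orange triangles), with the 11 gene groups numbered at the top. In group 4, which runs from ZNF101 to ZNF91, most triangles lie above their circles, while in group 7 circles and triangles are mixed. Triangles also lie above their circles for 7 of the 9 genes of group 11 and for 38 of all 59 genes.

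Several members are known for a role of their own, and their values were as follows. ZNF143, an activator at many housekeeping promoters, had 1510 and 1392 normalized reads under siSFPQ-2 and 1712 and 1702 under siSFPQ-3, against 2017 and 1957 under siCtrl. All siSFPQ libraries were lower (log2 fold change -0.34, SE 0.09, limma adjusted p = 0.01). Without siCtrl replicate 1 the adjusted p was 0.0926 and without siCtrl replicate 2 it was 0.0645.

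ZNF217, an oncogene amplified in breast cancer whose protein works with corepressors, had 2473 and 2350 normalized reads under siSFPQ-2 and 2323 and 1661 under siSFPQ-3, against 3315 and 3088 under siCtrl. It was lower in each siSFPQ library (log2 fold change -0.56, SE 0.13, limma adjusted p = 0.00497), though not without siCtrl replicate 1 (0.0674), and ZNF217-AS1 covers 26.9% of its span. ZNF202, a repressor of lipid metabolism genes, had 575 and 545 under siSFPQ-2 and 561 and 640.1 under siSFPQ-3, against 713 and 779.9 under siCtrl. Its groups did not overlap (log2 fold change -0.36, limma adjusted p = 0.0131), and the call was lost without either siCtrl library.

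Other members with known roles did not pass the threshold. ZNF10 (KOX1), the source of the KRAB domain used in many engineered repressors, had 466 and 658 normalized reads under siSFPQ-2 and 532 and 597 under siSFPQ-3, against 653 and 545 under siCtrl, and the groups overlapped (log2 fold change -0.09, 95% interval -0.41 to 0.22). ZNF207 (BuGZ), a spindle and kinetochore protein, had a log2 fold change of 0.01 (95% interval -0.19 to 0.21). ZNF24, a SCAN protein that represses VEGF, had 0.14 (-0.12 to 0.39), and ZNF131, a BTB-domain protein, had -0.06 (-0.27 to 0.15). ZNF263 had -0.14 (-0.47 to 0.18), and ZNF165, a cancer-testis antigen, had 0.03 (-0.34 to 0.41). ZNF292 had a log2 fold change of 0.24 (limma adjusted p = 0.0923), and ZNF268 had -0.26 (limma adjusted p = 0.0725).

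The strongest signal per length in siCtrl cells belonged to ZNF22, at 108 normalized reads per kb of RefSeq gene span, followed by ZNF217 at 105, ZNF276 at 103, ZNF281 at 74.3 and ZNF34 at 65.9. The median of the 141 genes was 17.0 reads per kb. ZNF22, the shortest of the 141 at 4.4 kb, had 481 and 467 normalized reads under siSFPQ-2 and 509 and 459 under siSFPQ-3, against 473 and 477 under siCtrl, and its groups overlapped. ZNF34 had 668 and 706 under siSFPQ-2 and 588 and 685 under siSFPQ-3, against 924 and 1063 under siCtrl, a 1.5-fold fall with groups apart (limma adjusted p = 0.00119). The genes called higher had a median span of 43.6 kb, against 24.7 kb for those called lower and 23.3 kb for those that did not pass.

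The deposited profiles give the signal along each gene, scaled to a common length. A profile could be tied to 140 of the 141 genes, ZNF177 being left out for its shared identifier, and 139 had signal at both ends in every library. The first 10 of the 300 gene bins, where paused polymerase is usually found, took a median of 25.6% and 27.3% of the gene signal under siSFPQ-2 and 21.5% and 24.7% under siSFPQ-3, against 31.7% and 30.3% under siCtrl. All 4 siSFPQ libraries lay below both siCtrl libraries in this median. The same share over all genes was not counted, so the difference is not read as particular to the ZNF genes.

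The ratio of signal in the last 100 of the 300 gene bins to that in the first 100 was compared next. The median difference, siSFPQ over siCtrl, was 0.15 log2 for the 139 ZNF genes and 0.16 for all 15181 genes tested, and 103 of 139 were positive. Without siCtrl replicate 1 these medians were 0.27 and 0.21, and without siCtrl replicate 2 both were 0.10. By limma 0 of the 139 passed in either direction, beside 2.57% higher and 0.968% lower over all genes. At limma's unadjusted p under 0.05, 29 were higher and 2 lower. The shares of all genes that were positive or under this unadjusted limit were not counted. These counts are therefore not read as particular to the ZNF genes. Among genes with a mean of 100 or more normalized reads 10 of 128 ZNF genes were higher, beside 1243 of 12617 genes. ZNF22 had log2 ratios of -2.20 and -2.07 under siSFPQ-2 and -2.16 and -2.57 under siSFPQ-3, against -3.13 and -3.47 under siCtrl, a difference of 1.05 (limma adjusted p = 0.0523). ZNF276 had -1.68 and -1.13 under siSFPQ-2 and -1.40 and -1.39 under siSFPQ-3, against -2.40 and -2.41 under siCtrl, a difference of 1.00 (limma adjusted p = 0.0556). With the first 10 bins of the gene left out, the median was -0.02 for the ZNF genes and 0.03 for all genes.

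**Figure D5:**
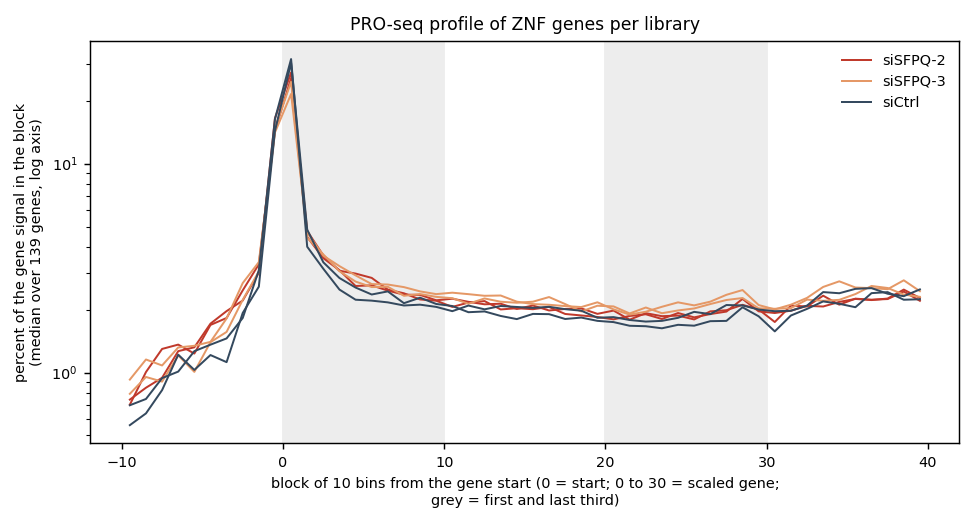
Percent of the gene signal in each block of 10 bins (median over 139 ZNF genes, log axis) along the scaled gene for each library, with the first and last 100 gene bins in grey. The block at the start is the highest point in every library and is lower in the siSFPQ-2 and siSFPQ-3 libraries than in the siCtrl libraries. The same profile over all genes was not drawn.

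The KRAB partners were read from a list of 42 genes of the TRIM28, SETDB1, HP1, NuRD, HUSH, DNA methylation and H3K9 methylation machinery, all of which were tested. Of these 11 were lower and 5 higher, with a median log2 fold change of -0.04, and the 26.2% lower was near the 23.2% over all features, while the 11.9% higher was below the 24.8% over all features. Without siCtrl replicate 1 there were 7 lower and without siCtrl replicate 2 there were 6. TRIM28, the scaffold that KRAB domains bind, had 1086 and 1062 normalized reads under siSFPQ-2 and 942 and 885 under siSFPQ-3, against 1499 and 1696 under siCtrl. It fell 1.61-fold with groups apart (log2 fold change -0.69, SE 0.09, limma adjusted p = 0.000209). SETDB1, the H3K9 methyltransferase brought in by TRIM28, had 568 and 625 under siSFPQ-2 and 531 and 623 under siSFPQ-3, against 620.0 and 597 under siCtrl, and its groups overlapped (log2 fold change -0.06, 95% interval -0.29 to 0.18).

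SUV39H1, another H3K9 methyltransferase, had 117 and 83.0 normalized reads under siSFPQ-2 and 144 and 118 under siSFPQ-3, against 309 and 273 under siCtrl, a 2.54-fold fall (limma adjusted p = 0.000145). EHMT2 (G9a) had a log2 fold change of -0.55 and MBD3 of -0.51, both called. The genes called higher included 3 NuRD subunits, GATAD2B at 0.76, HDAC1 at 0.69 and GATAD2A at 0.47, with the DNA methyltransferase DNMT3B at 0.80 and the HP1 gene CBX1 at 0.38. GATAD2B had 5129 and 5392 under siSFPQ-2 and 5474 and 5352 under siSFPQ-3, against 3352 and 2940 under siCtrl, with no overlap (limma adjusted p = 0.000205). The NuRD subunits thus went both ways, since MBD3, MTA1 and RBBP7 were called lower. So did the HP1 genes, with CBX5 called lower at -0.31 and CBX3 not called. Among the DNA methyltransferases DNMT1 was called lower at -0.30, and DNMT3A was not called.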

How the data were processed

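PRO-seq was measured in 6 SBC-3 libraries, 2 each for siSFPQ-2, siSFPQ-3 and siCtrl, grouped by the labels. The deposited signal values are normalized reads per feature. Builds hg38 and dm6 and the tools DESeq2 1.38.1, SAMtools 1.3.1, Bowtie2, cutadapt 1.14 and UMI-tools are named in the submitters' processing notes. The sources used here give neither the counted part of a gene nor the annotation nor the use of strand. Dividing by the value of 1 read gave whole numbers for 100% of values (tolerance 0.1). Each profile file holds deposited signal in bins along scaled genes, and the authors' deposited log2 fold changes, test scores and p-values were read only for the counts credited to them.

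After 240 repeated lines of 26067 were removed, limma 3.58.1 (R 4.3.3, trend) was fitted to log2(value + 1) of 21773 features in 1 model of 3 groups. Profile ratios used limma without trend. Alternatives were edgeR 4.0.16 and DESeq2 1.42.0 on recovered reads, other pseudocounts, filters and scalings, the replicate number as a block, and leaving out each library. Simulated data were used to test limma with trend, edgeR, DESeq2 and limma on ratios, for siSFPQ against siCtrl only. The other alternatives and comparisons were not tested in this way. Genes named were the 8 largest called rises and falls with groups apart and a mean of 50 or more, the 5 highest per kb, and lists of known roles and of KRAB partners. The members and lists were chosen with earlier results of these data known. Promoter words and gene overlaps were looked at without a plan, and ZNF43, ZNF44, ZNF66, ZNF100, ZNF107, ZNF138, ZNF208, ZNF273 and the genes named with the chromosome 19 groups were chosen after their values were seen. Sorting by protein domain was not run.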

Additional observations from a re-analysis of the deposited data

How the results depend on the processing

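Over the alternatives run, 156 recomputed summary counts stayed within 1.5 times of the reported count, while 24 were weaker and 7 stronger. Of the recomputed single-gene values 554 kept their direction and side of the threshold, while 29 were weaker, 5 stronger and 12 reversed. The count of ZNF genes higher in siSFPQ than in siCtrl was 9, and 4 without limma's trend, and the count lower was 47, and 31 without the trend. Over all features 4843 were higher and 4236 lower without the trend, against 5400 and 5044 with it. Leaving out 1 library in turn gave 3 to 9 higher and 17 to 43 lower, with 5 higher without siSFPQ-2 replicate 2. For siSFPQ-2 the ranges were 3 to 8 higher and 14 to 40 lower, with 19 lower without siSFPQ-2 replicate 2. For siSFPQ-3 they were 3 to 7 higher and 15 to 30 lower, and for siSFPQ-3 against siSFPQ-2 0 to 2 higher and 0 lower. On chromosome 19 they were 1 to 3 higher and 5 to 19 lower, and in the KRAB partner list 4 to 6 higher and 6 to 12 lower. DESeq2 called 1 ZNF gene higher with siSFPQ-3 than with siSFPQ-2. The late over early ratio, with 0 higher, had 10 among genes of 100 or more reads and 2 with the first and last 150 bins.

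The replicate numbers are shared by the groups, but same-numbered libraries did not all deviate together (r of 0.0529, 0.0587 and 0.382), so they were not treated as pairs. With the number as a replicate block 6 ZNF genes were higher and 1 lower with siSFPQ-3 than with siSFPQ-2, beside 572 higher and 188 lower over all features, against 17 and 5 without the block. For siSFPQ against siCtrl the block gave 11 ZNF genes higher and 57 lower, and 8 of the KRAB partner list higher. Over all features it gave 6027 higher and 5906 lower, against 5400 and 5044 without the block.

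Genes near 0 that did not pass changed sign. With libraries at the same total the log2 fold changes were -0.027 for ZNF22, -0.031 for ZNF207 and -0.0040 for ZNF165. Without 1 library in turn the range was -0.026 to 0.048 for ZNF22, -0.030 to 0.044 for ZNF207, -0.22 to 0.035 for ZNF10, -0.047 to 0.11 for ZNF165 and -0.11 to 0.0013 for SETDB1. The causes were not tested. Sorting the genes by protein domain was not run, since no protein sequences were used here. With 2 libraries per group the median half-width of the 95% interval was 0.26 log2, and intervals were widest for genes of few reads, up to 0.81.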
